A study of Xenopus laevis with 74 samples.

Results

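A set of 78 transcripts was chosen for a short pulse of mean TPM in Activin-induced endoderm of Xenopus laevis. They were picked from mean TPM (transcript abundance corrected for length and scaled to 1 common total) of 46013 symbols, with the entries of a symbol summed and the L and S homeologs kept apart. A member had at least 30 TPM in endoderm explants at stage 10.5, at least 4 times its endoderm mean at stage 9 and at least 4 times its endoderm mean at stage 13. Of the 100 symbols that met these numbers, 22 were left out because their symbols start with the names of the Mix, Bix, Nodal, Lefty, Wnt, Fgf, Gsc, VegT, Eomes or cadherin families, which left 78 members. Of these, 52 carry a gene symbol, 12 a LOC number and 14 only a gene model name, and 25 end in L and 24 in S. The rule used endoderm values at stages 9, 10.5 and 13, so these values are given as a description without a test.

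The libraries came from animal cap explants, pluripotent cells cut from the blastula of wild-type embryos, collected at stage 9 (late blastula), at stages 10, 10.5, 11 and 12 (gastrula) and at stage 13 (early neurula). Explants in Activin (endoderm), in BMP4/7 (ventral mesoderm) and in Noggin (neural) were set against untreated explants (epidermal), with 3 libraries a group and 5 for ventral mesoderm at stage 11, which made 74 libraries. The labels give 160 ng/uL Activin, 20 ng/uL BMP4/7 and 100 ng/uL Noggin, whereas the methods of the study give Activin and Noggin per mL. The methods describe embryos from a single frog a day and pools of explants, so a replicate is a pool of caps, and p-values measure the spread between these samples. A HiSeq read the ventral mesoderm libraries and a NextSeq those of the other 3 lineages, and in any comparison between ventral mesoderm and another lineage the instrument and the lineage cannot be told apart. The methods put the Noggin explants in a medium low in calcium and magnesium. They put the Activin and BMP4/7 explants in Marc's Modified Ringer's solution. In any comparison between neural explants and another lineage, the medium and the factor cannot be told apart.

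Activin signals through the same receptors and Smad proteins as Nodal, the signal that induces mesoderm and endoderm in the gastrula. Its direct targets include transcription factors of the organizer, the dorsal signalling centre. Cells of the organizer move into the embryo during gastrulation and become, among other tissues, head mesoderm and anterior endoderm. Many such targets are shut off once gastrulation is under way, when repressors and feedback inhibitors that belong to the same early set have been made.

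Library totals ran between 11938338 and 23215739 counts. The summed TPM of 8 endoderm marker genes checked the labels: it was 4525 to 5516 in endoderm at stage 13, against 95.54 to 589.5 in ventral mesoderm, 113 to 484.3 in neural and 64.2 to 85.1 in epidermal explants. Markers of notochord and axial mesoderm were high in endoderm explants too. At stage 12 they summed to 741.8 to 819.4 TPM, against 51.61 to 103.6 in ventral mesoderm, 48.79 to 141 in neural and 76.01 to 175.2 in epidermal explants. The marker sums thus do not show that these explants are endoderm alone. In ventral mesoderm, members with at least 5 TPM were high in replicate 2. At stage 10 their median was 1.441 times the mean of the other libraries (highest for 38 of 54 members). At stage 10.5 it was 1.53 times (highest for 42 of 57). Replicate 1 of ventral mesoderm stood apart the other way. At stage 10.5 its members had a median of 0.557 times the mean of the other 2 libraries, it was the lowest library for 46 of the 57 members with at least 5 TPM, and its summed mesoderm markers were 10.48 TPM, against 69.59 and 45.76 TPM. These markers include tbxt, whose S copy is a member, so the marker sum and the member values are not separate measures. Results on ventral mesoderm are also given without replicate 1, a choice made after seeing the data. Replicate 1 was also low at stage 13 in neural explants, with a median of 0.467 times the mean of the other libraries (lowest for 31 of 49 members), and in epidermal explants, with 0.612 times (lowest for 27 of 34). In endoderm, replicate 2 was low at stages 9 and 13, which the rule used. Its medians were 0.688 times (lowest for 23 of 36 members) and 0.673 times (lowest for 44 of 65). Endoderm stage 11 replicate 3 was high, with 1.319 times (highest for 53 of 78). Epidermal replicate 1 had the highest sum of epidermal markers at every stage, at stage 10 with 2817 TPM, against 1196 and 1190 TPM. Of the 78 members, 74 were found in the count table and 71 had enough counts to be tested, where has2.S, arl5c.S, ccndx.L and a provisional homeobox gene had no count row. TPM and CPM (the counts scaled to library size) of a member followed each other over libraries with a median correlation of 0.977. The lowest correlations were those of cdk12.S (0.008), Xelaev18006967m (0.029), Xelaev18003318m (0.086), Xelaev18001472m (0.307) and Xelaev18004537m (0.463), of which Xelaev18006967m, Xelaev18003318m and Xelaev18004537m had a mean of 0.333, 0 and 1.67 counts in endoderm at stage 10.5. With CPM in place of TPM, LOC101733813.1 (3.72) and fam43a.S (3.97) missed the ratio to stage 13. Xelaev18001472m missed the ratio to stage 9 (3.52), and Xelaev18004537m missed both (1.77 to stage 9 and 2.23 to stage 13). For cdk12.S the CPM ratios were 0.844 to stage 9 and 0.986 to stage 13, and for irs2 the ratio to stage 9 was 1.75, so their counts show no 4-fold rise.

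In endoderm explants the members had a median of 108.8 TPM at stage 10.5, with a lowest value of 30.28 TPM and a highest of 945.8 TPM, and 41 of them were above 100 TPM. The stage 10.5 mean was a median of 22.8 times the stage 9 mean and 8.02 times the stage 13 mean. At stages the rule did not use, members stood at a median of 38.4% of their stage 10.5 level at stage 10, 62.1% at stage 11 and 21.8% at stage 12. The highest mean fell at stage 10.5 for 68 members, at stage 11 for 9 (among them otx2.L, gdf3.S, tbxt.S, prdm1.L, fzd7.S, rgs16.S, ednra.S and chrna4.S) and at stage 10 for ccndx.L. At stage 9, 42 members were under 5 TPM, while 17 were at 20 TPM or more and thus entered the course already expressed. The libraries of a member spread with a median coefficient of variation of 15.4% at stage 10.5. In bulk explants, fewer cells that express a gene and less RNA per cell cannot be told apart.

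**Figure D1:**
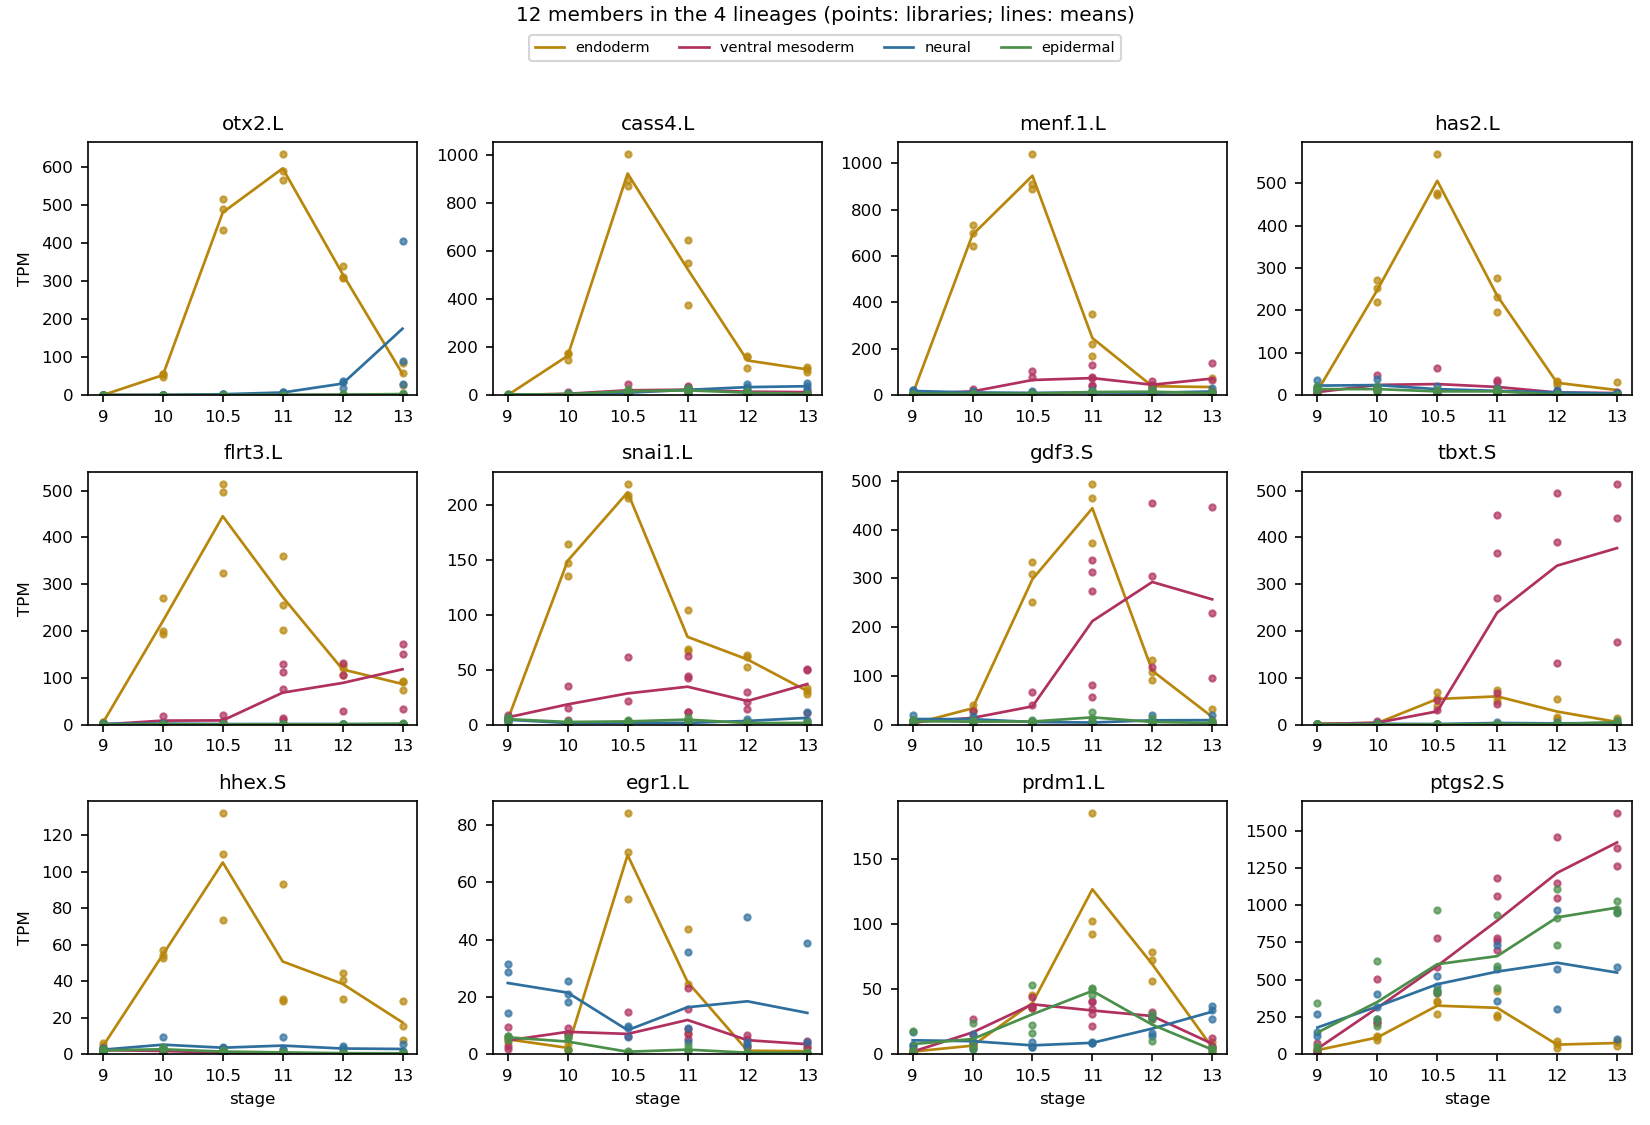
TPM (linear axis, its range set for each panel) of 12 members by stage in endoderm, ventral mesoderm, neural and epidermal explants. Points are libraries and lines join group means. The endoderm line peaks at stage 10.5 or 11 in all 12 panels, while tbxt.S and gdf3.S stay high in ventral mesoderm to stage 13 and ptgs2.S is high in the other lineages.

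Counts were compared between stages 10, 11 and 12, whose libraries the rule did not use. These comparisons are still not independent of the rule. It required low endoderm levels before and after the pulse, which favours a fall from stage 11 to stage 12. Most members peaked between stages 10 and 11, so these stages lie on either side of the peak. Libraries of the same replicate number also deviated together across these stages. The counts of members therefore describe the course and cannot decide whether a pulse exists. From counts with edgeR's quasi-likelihood test and Benjamini-Hochberg adjustment over all genes, 42 of the 71 tested members were higher at stage 11 than at stage 10, where 16.2% of all genes were, and 3 were lower (18.6% of all genes). With replicate number as a block, 5 were lower (26.3% of all genes), and 5 were lower without endoderm stage 11 replicate 3. The members' median log2 fold change was 1.18, against 0.06 over all genes. From stage 11 to stage 12, 44 members fell and 0 rose, where 3.86% of all genes fell and 4.16% rose. The median was −1.47, against −0.02 over all genes, and 70 of the 71 members had a negative change. At an unadjusted p under 0.05, 60 members were lower and 0 higher, and DESeq2 gave 55 lower (8.33% of all genes) and 0 higher (8.69% of all genes). A single fit of all 74 libraries gave 18 lower (3.14% of all genes). With replicate number as a block, 4739 of the 27292 genes tested fell and 4555 rose, against 1054 and 1136 without it. The background share of falling genes was thus much larger with the block. The count of 44 was 23 without endoderm stage 12 replicate 2 and also 23 without replicate 3.

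At stage 10 some members were already higher in endoderm than in other lineages. Of the 71 tested, 34 were not called against epidermal explants and 47 were not called against ventral mesoderm. The rule chose members for a high endoderm level between stages 10 and 11 and set no limit in other lineages. An excess of higher members over the share of all genes was thus favoured by that choice, and is given as a description. In endoderm against epidermal explants, 36 of 71 were higher (2.57% of all genes) and 1 was lower (2.22% of all genes), with a median log2 fold change of 2.03. At stage 11, 50 were higher (6.46% of all genes) and 2 lower (4.31% of all genes), with a median of 3.72. In endoderm against ventral mesoderm at stage 10, 24 were higher (0.54% of all genes) and 0 lower (0.163% of all genes), with a median of 1.43; 6 were lower at an unadjusted p under 0.05, and DESeq2 called 38 higher (2.47% of all genes) and 3 lower (1.75% of all genes). Without ventral mesoderm replicate 1, 20 were higher and 0 lower, and 1 was lower without endoderm replicate 1 or without ventral mesoderm replicate 2. Against epidermal explants at stage 10, 2 were lower without endoderm replicate 1 or epidermal replicate 1 or 2 and 0 without endoderm replicate 2, and at stage 11, 1 was lower without epidermal replicate 1 or 2 and 0 without endoderm replicate 1 or 2. Over all genes the median was between 0.01 and 0.04 in these comparisons.

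**Figure D2:**
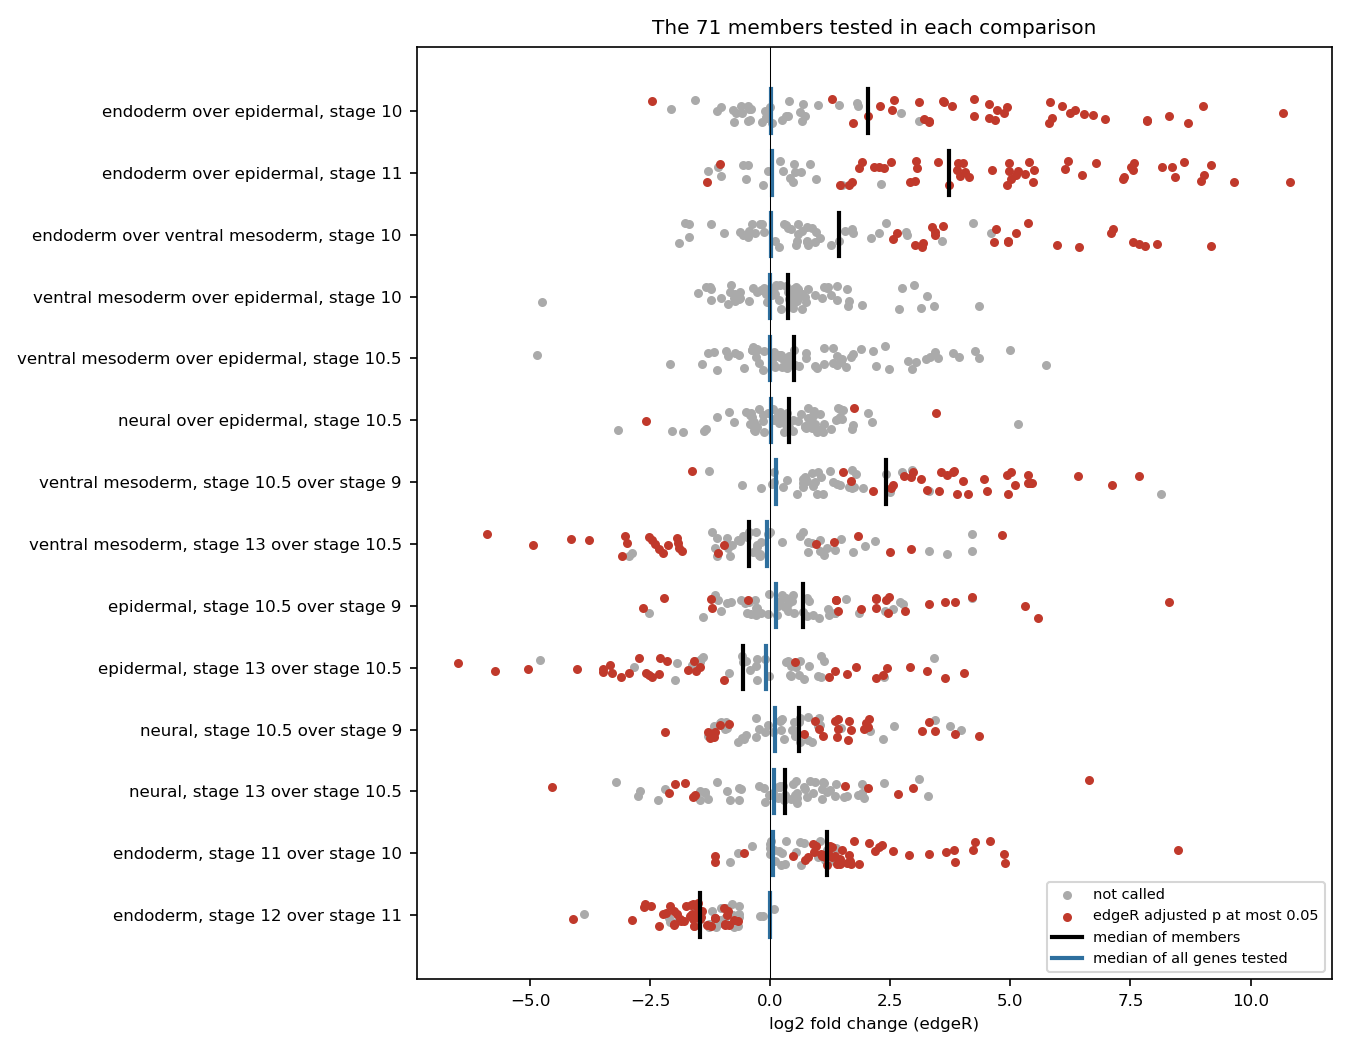
log2 fold changes (edgeR, counts) of the 71 tested members in the 14 comparisons. Each point is a member, red where its adjusted p was at most 0.05, the black bar is the members' median and the blue bar the median of all genes. In endoderm over epidermal explants at stage 11 the black bar is at 3.72 and the blue bar at 0.04, and in endoderm at stage 12 over stage 11 they are at −1.47 and −0.02.

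The 10 lists of pathway genes show what moved around the members, which were left out of them. Over all genes tested, 16.2% were higher and 18.6% lower at stage 11 than at stage 10. At stage 12 against stage 11 the shares were 4.16% higher and 3.86% lower. Of 33 other endoderm factors tested, 27 were higher in endoderm at stage 11 than at stage 10 and 0 lower, and between stages 11 and 12 the same list gave 9 higher and 3 lower. Organizer transcription factors gave 27 higher and 4 lower of 38, then 3 higher and 4 lower. Pan-mesoderm and paraxial factors gave 22 higher and 2 lower of 39, then 10 higher and 1 lower. Secreted antagonists gave 19 higher and 6 lower of 40, then 9 higher and 0 lower of 39. In these 4 lists more genes rose than fell at the earlier step, and at the later step no more than 4 genes of a list fell. The same held for the cell cycle and stress list given below. ERK and FGF feedback genes, which include Spry, Dusp, Fos and Jun genes, gave 19 higher and 4 lower of 43, then 0 higher and 8 lower. Activin and Nodal pathway genes gave 12 higher and 17 lower of 50, then 5 and 5. Notch pathway genes gave 12 and 12 of 48, then 6 higher and 0 lower of 49. Genes of cell movement and adhesion gave 38 higher and 11 lower of 92, then 17 and 5. Genes of the cell cycle and stress gave 17 higher and 8 lower of 41, then 10 and 3. Genes of chromatin and RNA gave 6 higher and 7 lower of 33, near the shares of all genes, then 4 and 3.

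Of the transcription factors, otx2.L is a homeobox gene of the head organizer. In the 3 endoderm libraries it was at 0.45, 0.13 and 0.20 TPM at stage 9, 54.7, 47.5 and 55.9 TPM at stage 10, 518, 434 and 492 TPM at stage 10.5, 590, 634 and 567 TPM at stage 11, 307, 339 and 311 TPM at stage 12, and 83.5, 25.8 and 58.6 TPM at stage 13. No endoderm library at stages 10 to 13 overlapped with an epidermal one, where it never passed 4.75 TPM, or with a ventral mesoderm one, where it never passed 1.45 TPM. At stage 10 it was higher in endoderm than in epidermal explants by 8.31 on the log2 scale (SE 0.41, edgeR adjusted p = 1.4e-05) and higher than in ventral mesoderm by 7.80 (SE 0.37, adjusted p = 5.9e-05). It was higher at stage 11 than at stage 10 by 3.85 (SE 0.16, adjusted p = 9.7e-06).

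hhex.S, a homeobox repressor of anterior endoderm, had 56.8, 52.5 and 54.3 TPM in endoderm libraries at stage 10, against 1.18, 1.01 and 2.91 TPM in ventral mesoderm and 0.80, 3.63 and 3.48 TPM in epidermal ones. The groups did not overlap, and endoderm was higher by 4.95 on the log2 scale over ventral mesoderm (SE 0.43, edgeR adjusted p = 0.0013) and by 4.24 over epidermal explants (SE 0.48, adjusted p = 0.0039). It was not called between stages 10 and 11 (log2 fold change 0.17, adjusted p = 0.77) or between stages 11 and 12 (−0.16, adjusted p = 0.86). osr1.S, a zinc-finger factor of intermediate mesoderm, had 75.5, 64.3 and 59.5 TPM in endoderm at stage 10.5 and 7.73, 19.1 and 16.0 TPM at stage 10, and no other lineage had a library above 3.75 TPM. pitx3.L, a homeobox gene known from lens and midbrain, had 22.4, 45.1 and 23.3 TPM in endoderm at stage 10.5 and at most 1.23 TPM in any library of the other lineages. Both were near absent outside endoderm.

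foxd4l1.1.S (foxd5), a forkhead repressor of the early neural plate, dipped before its pulse. Its endoderm libraries were at 12.1, 12.7 and 21.1 TPM at stage 9, 2.01, 2.39 and 4.93 TPM at stage 10 and 74.8, 58.0 and 75.9 TPM at stage 10.5. At stage 10 it was the 1 member lower in endoderm than in epidermal explants, where it had 10.3, 13.9 and 21.1 TPM (log2 fold change −2.46, SE 0.43, edgeR adjusted p = 0.02). That call was lost without endoderm stage 10 replicate 2 (adjusted p = 0.091) and without epidermal stage 10 replicate 3 (adjusted p = 0.072). At stage 11 it was higher in endoderm, with 52.7, 27.0 and 51.4 TPM against 0.47, 1.84 and 0.78 TPM in epidermal libraries (log2 fold change 5.30, SE 0.49, adjusted p = 1.8e-04). In neural explants it was back at 46.1, 70.3 and 42.9 TPM at stage 12.

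Both copies of snai1, a zinc-finger repressor that drives epithelial cells to become motile, were early. snai1.L had 136, 148 and 165 TPM in endoderm at stage 10, against 1.45, 3.05 and 2.69 TPM in epidermal libraries, and 209, 220 and 207 TPM at stage 10.5. The stage 10 groups did not overlap (log2 fold change 5.83, SE 0.26, edgeR adjusted p = 6.8e-06). snai1.S had 127, 138 and 160 TPM in endoderm at stage 10, against 12.0, 14.3 and 10.8 TPM in ventral mesoderm (log2 fold change 3.42, SE 0.21, adjusted p = 1.8e-04). In ventral mesoderm at stage 10.5 snai1.L had 2.01, 61.7 and 21.6 TPM and snai1.S 1.74, 17.9 and 6.79 TPM, the lowest value of each being that of replicate 1.

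tbxt.S (brachyury), the T-box factor of early mesoderm, had the highest level elsewhere relative to its own endoderm mean. In endoderm it had 56.5, 68.8 and 39.0 TPM at stage 10.5, 73.1, 58.3 and 49.6 TPM at stage 11, and 14.1, 1.54 and 1.44 TPM at stage 13. In the ventral mesoderm libraries it had 0.68, 52.2 and 32.2 TPM at stage 10.5, 68.5, 448, 44.9, 270 and 366 TPM at stage 11, and 176, 441 and 515 TPM at stage 13, so its course there did not turn down. Its highest ventral mesoderm mean was 688.8% of its endoderm stage 10.5 mean. In endoderm it was higher at stage 11 than at stage 10 by 4.56 on the log2 scale (SE 0.25, edgeR adjusted p = 2.1e-05), and its change between stages 11 and 12 was −0.92 (adjusted p = 0.37), or −1.87 without endoderm stage 12 replicate 1 (adjusted p = 0.022).

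The hes7.2 genes, basic helix-loop-helix repressors of the Hes family that act in Notch signalling, were members as a pair. hes7.2.S had 128, 146 and 177 TPM in endoderm at stage 10, against 5.38, 2.84 and 4.93 TPM in epidermal libraries (log2 fold change 4.93, SE 0.28, edgeR adjusted p = 3.0e-05). hes7.2.L had 83.5, 78.9 and 55.9 TPM, against 6.63, 5.71 and 5.02 TPM (log2 fold change 3.62, SE 0.29, adjusted p = 3.1e-04). Neither pair of groups overlapped. prdm1.L (Blimp1), a repressor of transcription, came later: 6.09, 7.91 and 5.44 TPM in endoderm at stage 10, 45.3, 37.4 and 35.3 TPM at stage 10.5 and 92.3, 185 and 103 TPM at stage 11, a change of 4.89 on the log2 scale between stages 10 and 11 (SE 0.36, adjusted p = 9.0e-05). menf.1.L had the highest level of all members. It was at 2.93, 3.89 and 6.07 TPM at stage 9, 698, 733 and 643 TPM at stage 10, 887, 1038 and 912 TPM at stage 10.5, and 170, 219 and 349 TPM at stage 11. It was thus 1 of the 3 members lower at stage 11 than at stage 10 (log2 fold change −1.15, SE 0.22, adjusted p = 0.0042), with LOC108699131 (−1.15, SE 0.20, adjusted p = 0.0024) and snai1.L (−0.55, SE 0.15, adjusted p = 0.024). In the single fit of all libraries none of the 3 was called (adjusted p of 0.28 for menf.1.L, 0.25 for LOC108699131 and 0.67 for snai1.L). The call of snai1.L was lost without endoderm stage 10 replicate 2 (adjusted p = 0.059) or 3 (0.075) and without endoderm stage 11 replicate 1 (0.097) or 2 (0.086).

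Among ligands and receptors, gdf3.S, which encodes a TGF-beta ligand of the Vg1 group (derrière), had 28.7, 30.8 and 40.8 TPM in endoderm at stage 10, 334, 309 and 252 TPM at stage 10.5, 464, 494 and 373 TPM at stage 11, and 32.6, 5.44 and 9.23 TPM at stage 13. In ventral mesoderm it had 55.9, 312, 80.9, 274 and 338 TPM at stage 11 and 94.9, 229 and 446 TPM at stage 13, where replicate 1 was the lowest. The endoderm rise between stages 10 and 11 was 4.26 on the log2 scale (SE 0.23, edgeR adjusted p = 2.0e-05), and the fall between stages 11 and 12 was −1.85 (SE 0.22, adjusted p = 0.0047, but 0.25 in the single fit of all libraries). fzd7.S, a Wnt receptor, had 53.9, 28.8 and 35.6 TPM at stage 10, 276, 185 and 203 TPM at stage 10.5 and 308, 314 and 289 TPM at stage 11 in endoderm (log2 fold change of stage 11 over stage 10 3.3, SE 0.28, adjusted p = 1.3e-04). ednra.S, an endothelin receptor, had 55.0, 81.9 and 35.1 TPM at stage 11 and 1.80, 2.97 and 2.41 TPM at stage 10 in endoderm (log2 fold change 4.87, SE 0.40, adjusted p = 1.3e-04). rgs16.S, a GTPase activator that turns off G proteins, had 137, 52.2 and 77.8 TPM at stage 11 and 0, 0.17 and 0.81 TPM at stage 10 in endoderm, and no epidermal library passed 3.96 TPM. ednra.S and rgs16.S were thus still near 0 at stage 10, when many members had reached a large share of their peak.

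cxcr4.L, a chemokine receptor, was expressed in every lineage and differed less. It had 189, 199 and 201 TPM in endoderm at stage 10, against 77.1, 78.0 and 62.2 TPM in epidermal libraries, a difference of 1.29 on the log2 scale (SE 0.14, edgeR adjusted p = 0.0018) without overlap. In neural explants it fell between stages 9 and 10.5 by 1.18 on the log2 scale (SE 0.13, adjusted p = 5.7e-04), with 39.5, 54.9 and 46.6 TPM at stage 10.5 and 145, 127 and 118 TPM at stage 9.

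In all, 6 members belong to the ERK response. spry2.L and spry2.S, Sprouty inhibitors of receptor tyrosine kinase signalling, and dusp6.S, an ERK phosphatase, dampen the pathway, while egr1.L, egr1.S and ier2.L are immediate-early genes that it switches on. At stage 10 none of the 6 was called in endoderm against epidermal explants (edgeR adjusted p of 0.67 for spry2.L, 0.062 for spry2.S, 0.073 for dusp6.S, 0.30 for egr1.L, 0.40 for egr1.S and 0.43 for ier2.L). spry2.L had 23.3, 24.2 and 26.7 TPM in endoderm at stage 10, 107, 105 and 109 TPM at stage 10.5, and 85.7, 78.8 and 95.8 TPM at stage 11. It was higher at stage 11 than at stage 10 by 2.25 on the log2 scale (SE 0.16, adjusted p = 5.1e-05) and higher than in epidermal explants at stage 11 by 3.06 (SE 0.26, adjusted p = 8.8e-05). egr1.L had 3.38, 1.78 and 1.37 TPM at stage 10, 84.1, 54.0 and 70.4 TPM at stage 10.5, 24.6, 7.35 and 43.7 TPM at stage 11 and 2.82, 0.49 and 0.24 TPM at stage 12. egr1.S had 3.3, 1.70 and 1.81 TPM at stage 10, 51.7, 36.5 and 39.7 TPM at stage 10.5, 13.1, 2.82 and 23.3 TPM at stage 11 and 1.72, 0.54 and 0 TPM at stage 12. In both copies every stage 10.5 library was above every library of the other stages. egr1.L was higher at stage 11 than at stage 10 by 3.83 (SE 0.70, adjusted p = 0.006) and egr1.S by 2.89 (SE 0.70, adjusted p = 0.017), a call that was lost without endoderm stage 10 replicate 2 (0.07) or 3 (0.056). The fall of egr1.L to stage 12 was −4.11 (SE 0.96, adjusted p = 0.046), and this call was lost with the replicate block (adjusted p = 0.11), without endoderm stage 11 replicate 1 (0.11) or 3 (0.14) and without endoderm stage 12 replicate 2 (0.14) or 3 (0.11). ier2.L had 139, 117 and 138 TPM in endoderm at stage 10.5, but 100 to 121 TPM in neural and 58.8 to 75.6 TPM in epidermal libraries of that stage, and its stage 11 difference from epidermal explants was −0.05 on the log2 scale (adjusted p = 0.93).

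Among members with a gene name, those that act at the cell surface or on the cytoskeleton include the highest levels after menf.1.L. has2.L and has2.S encode hyaluronan synthase, which spins hyaluronan into the matrix around migrating cells. has2.L had 7.66, 5.91 and 16.5 TPM in endoderm at stage 9, 221, 273 and 252 TPM at stage 10, 473, 569 and 477 TPM at stage 10.5, 197, 231 and 276 TPM at stage 11 and 34.3, 23.0 and 30.1 TPM at stage 12. Epidermal libraries had 9.95, 22.0 and 10.8 TPM at stage 10, without overlap (log2 fold change 4.24, SE 0.28, edgeR adjusted p = 1.4e-04), whereas ventral mesoderm had 8.68, 47.0 and 17 TPM and the difference was not called (3.58, SE 0.65, adjusted p = 0.093) unless ventral mesoderm stage 10 replicate 2 was left out (9.0e-04). Between stages 11 and 12 has2.L fell by 2.08 on the log2 scale (SE 0.13, adjusted p = 0.0014, but 0.078 in the single fit of all libraries). Its TPM and counts differ on stages 10 and 11: the TPM mean was lower at stage 11, but the count-based fold change was 0.48 (SE 0.13, adjusted p = 0.02), a call lost without endoderm stage 10 replicate 1 (0.085) or 3 (0.051) or without endoderm stage 11 replicate 2 (0.054). Such a difference was not limited to has2.L. In epidermal explants cxcr4.L was called higher at stage 13 than at stage 10.5 (0.51, edgeR adjusted p = 0.033) with means of 67.44 and 68 TPM. In the same comparison cdk12.S was called higher (1.35, edgeR adjusted p = 0.0069), while its means were 13.49 TPM at stage 13 and 25.68 TPM at stage 10.5. Calls can therefore depend on the scale, and not only those of small changes. has2.S, which the count table does not list, had 249, 300 and 234 TPM in endoderm at stage 10.5.

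flrt3.L and flrt3.S, transmembrane proteins that modulate cadherin adhesion in the gastrula, were both members. flrt3.S had 67.1, 73.5 and 54.5 TPM in endoderm at stage 10, 296, 269 and 257 TPM at stage 10.5 and 228, 232 and 235 TPM at stage 11. Epidermal libraries had 0.08, 0.34 and 0.26 TPM at stage 10 (log2 fold change 7.84, SE 0.35, edgeR adjusted p = 6.8e-06). flrt3.L had 199, 272 and 193 TPM at stage 10, against 0.22, 1.74 and 0.78 TPM in epidermal libraries (log2 fold change 7.85, SE 0.57, adjusted p = 0.001). Against ventral mesoderm, where flrt3.L had 3.85, 18.0 and 3.77 TPM at stage 10, its difference of 4.60 was not called (adjusted p = 0.076) unless ventral mesoderm stage 10 replicate 2 was left out (6.8e-05). In ventral mesoderm at stage 13 flrt3.L had 32.5, 150 and 172 TPM, above the 92.0, 74.9 and 93.6 TPM of endoderm in replicates 2 and 3.

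cass4.L, an adaptor of the Cas family that links focal adhesions to the cytoskeleton, had the largest ratio of stage 10.5 to stage 9 among the members over 500 TPM. Its endoderm libraries had 0.33, 0.44 and 0.51 TPM at stage 9, 172, 144 and 175 TPM at stage 10, 1003, 872 and 894 TPM at stage 10.5, 377, 552 and 648 TPM at stage 11, 112, 163 and 158 TPM at stage 12 and 116, 109 and 96.0 TPM at stage 13. At stage 10 it was higher than in epidermal libraries, which had 3.44, 4.83 and 3.24 TPM, by 4.87 on the log2 scale (SE 0.19, edgeR adjusted p = 3.6e-06). Its fall between stages 11 and 12 was −1.60 (SE 0.16, adjusted p = 0.0032, but 0.091 in the single fit of all libraries). plekhg5.L, a guanine nucleotide exchange factor known from Xenopus bottle cells, had 92.4, 134 and 106 TPM in endoderm at stage 10.5 and at most 9.67 TPM in any library of the other lineages. At stage 10 it was higher in endoderm than in ventral mesoderm by 5.37 (SE 0.40, adjusted p = 5.2e-04). stard13.S, a GTPase activator with a lipid-binding domain, and mcf2l, an exchange factor, had narrow courses, with 12.3, 17.2 and 22.4 TPM at stage 12 and 55.8, 92.5 and 105 TPM at stage 11 for stard13.S (log2 fold change −2.23, SE 0.25, adjusted p = 0.0039), and a fall of −2.17 between these stages for mcf2l (SE 0.18, adjusted p = 0.0017).

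Of the remaining named members, plk3.L, a stress-response kinase of the polo family, had 128, 151 and 171 TPM in endoderm at stage 10, 446, 457 and 450 TPM at stage 10.5, 173, 158 and 283 TPM at stage 11 and 28.1, 23.0 and 34.8 TPM at stage 12. At stage 10 ventral mesoderm had 9.82, 16.1 and 12.6 TPM and epidermal explants 7.47, 12.2 and 8.98 TPM, and endoderm was higher by 3.42 (SE 0.25, edgeR adjusted p = 4.9e-04) and by 3.79 (SE 0.20, adjusted p = 2.2e-05) on the log2 scale. It fell between stages 11 and 12 by 2.61 (SE 0.20, adjusted p = 0.0014). nptx2.S, a neuronal pentraxin, had 27.6, 28.4 and 31.7 TPM in endoderm at stage 10, against 0.31, 0.27 and 0.48 TPM in epidermal libraries (log2 fold change 6.23, SE 0.32, adjusted p = 1.6e-05), and 116, 160 and 137 TPM at stage 10.5. ptgs2.S, the cyclooxygenase that makes prostaglandin precursors, was higher elsewhere: it had 261, 250 and 420 TPM in endoderm at stage 11, against 937, 594 and 443 TPM in epidermal libraries (log2 fold change −1.32, SE 0.29, adjusted p = 0.018). That call was lost without endoderm stage 11 replicate 1 (adjusted p = 0.07) or 2 (0.074). The other member lower in endoderm at stage 11 was Xelaev18001896m (−1.04, SE 0.29, adjusted p = 0.049), which stayed called only in the fit without epidermal stage 11 replicate 3 and reached adjusted p of 0.088 to 0.16 in the 5 other fits without 1 library.

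A total of 26 members carry no gene name, and some of these were the most restricted. LOC108705533 had 319, 190 and 148 TPM in endoderm at stage 10, 794, 672 and 854 TPM at stage 10.5 and 410, 347 and 598 TPM at stage 11, while no library of another lineage passed 3.44 TPM. At stage 11 it was higher than in epidermal explants by 10.83 on the log2 scale (SE 0.43, edgeR adjusted p = 1.3e-06). Xelaev18034023m had 641, 566 and 616 TPM in endoderm at stage 10.5 and Xelaev18000337m 560, 494 and 565 TPM, and the stage 10 difference of Xelaev18034023m from ventral mesoderm was 8.05 (SE 0.42, adjusted p = 1.0e-04). LOC108705749 was listed at 0 in every endoderm library of stage 9, had 120, 165 and 267 TPM at stage 10.5 and was back at 2.31, 0.94 and 2.19 TPM at stage 12. It had 192, 196 and 203 counts in endoderm at stage 10, against 0 in all 3 epidermal libraries. The files give nothing about what these loci encode.

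In the other lineages the highest means of the same 78 transcripts fell at every stage, but in ventral mesoderm stages 10.5 and 11 held the largest numbers. The highest ventral mesoderm mean fell at stage 10.5 for 24 members and at stage 11 for 25, with 2 at stage 9, 10 at stage 10, 4 at stage 12 and 13 at stage 13. In neural explants the stages held 15, 15, 9, 11, 12 and 16 members from stage 9 to stage 13, and in epidermal explants 11, 20, 14, 13, 9 and 11. Among the 10876 symbols that reached 30 TPM in any group, 9.4% peaked at stage 10.5 in ventral mesoderm, 7% in neural and 8.87% in epidermal explants. At stage 11 the shares were 6.79%, 6.68% and 6.76%, and at stage 9 they were 46%, 52.2% and 47.5%. The rule itself, applied to each lineage's own means, was met by 7 members in ventral mesoderm (LOC108719533, LOC108719547, Xelaev18001443m, Xelaev18001896m, Xelaev18030357m, Xelaev18001472m and prdm1.L; 0.0869% of all symbols), by 0 in neural (0.00217% of all symbols) and by LOC108719533 and itprip.L in epidermal explants (0.0652% of all symbols), where in endoderm 0.217% of all symbols met it. Of the 7 in ventral mesoderm, Xelaev18001472m had only 1, 6 and 10 counts in the stage 10.5 libraries.

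**Figure D3:**
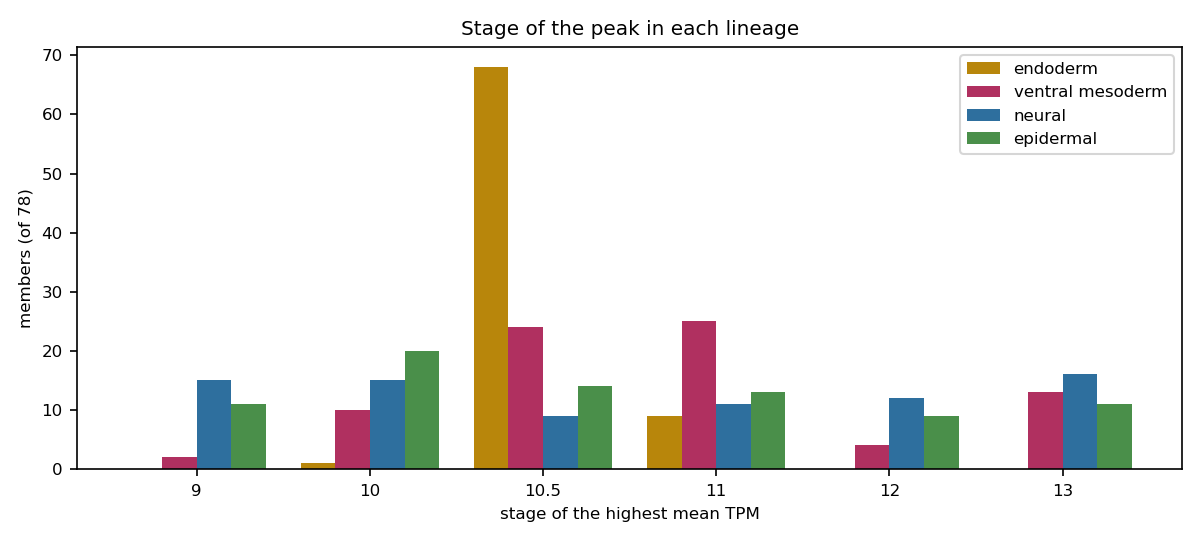
Number of members (of 78) whose mean TPM was highest at each stage, by lineage. In endoderm 68 peak at stage 10.5, which the rule fixed in part, while in ventral mesoderm stages 10.5 and 11 hold 24 and 25 and in neural and epidermal explants no stage holds more than 20.

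The level reached elsewhere ran over more than 3 orders of magnitude, between 0.21% and 688.8% of the endoderm stage 10.5 mean for the highest mean in any other lineage, with a median of 33.3%. In all, 10 members stayed under 5% (LOC108705533, Xelaev18034023m, Xelaev18000337m, Xelaev18010896m, the provisional homeobox gene, pitx3.L, osr1.S, cass4.L, plekhg5.L and hhex.S), 23 lay between 5% and 25%, 33 between 25% and 100%, and 12 reached or passed their endoderm level (among them tbxt.S, ptgs2.S, itprip.L, arg1.L, prdm1.L, ier2.L, LOC108719547 and 4 gene models). By lineage the median of the highest mean was 23.4% in ventral mesoderm, 12.8% in neural and 11.1% in epidermal explants, and at stage 10.5 itself it was 13.0%, 5.14% and 4.38%. The restricted members and the shared ones thus form a range without a gap.

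**Figure D4:**
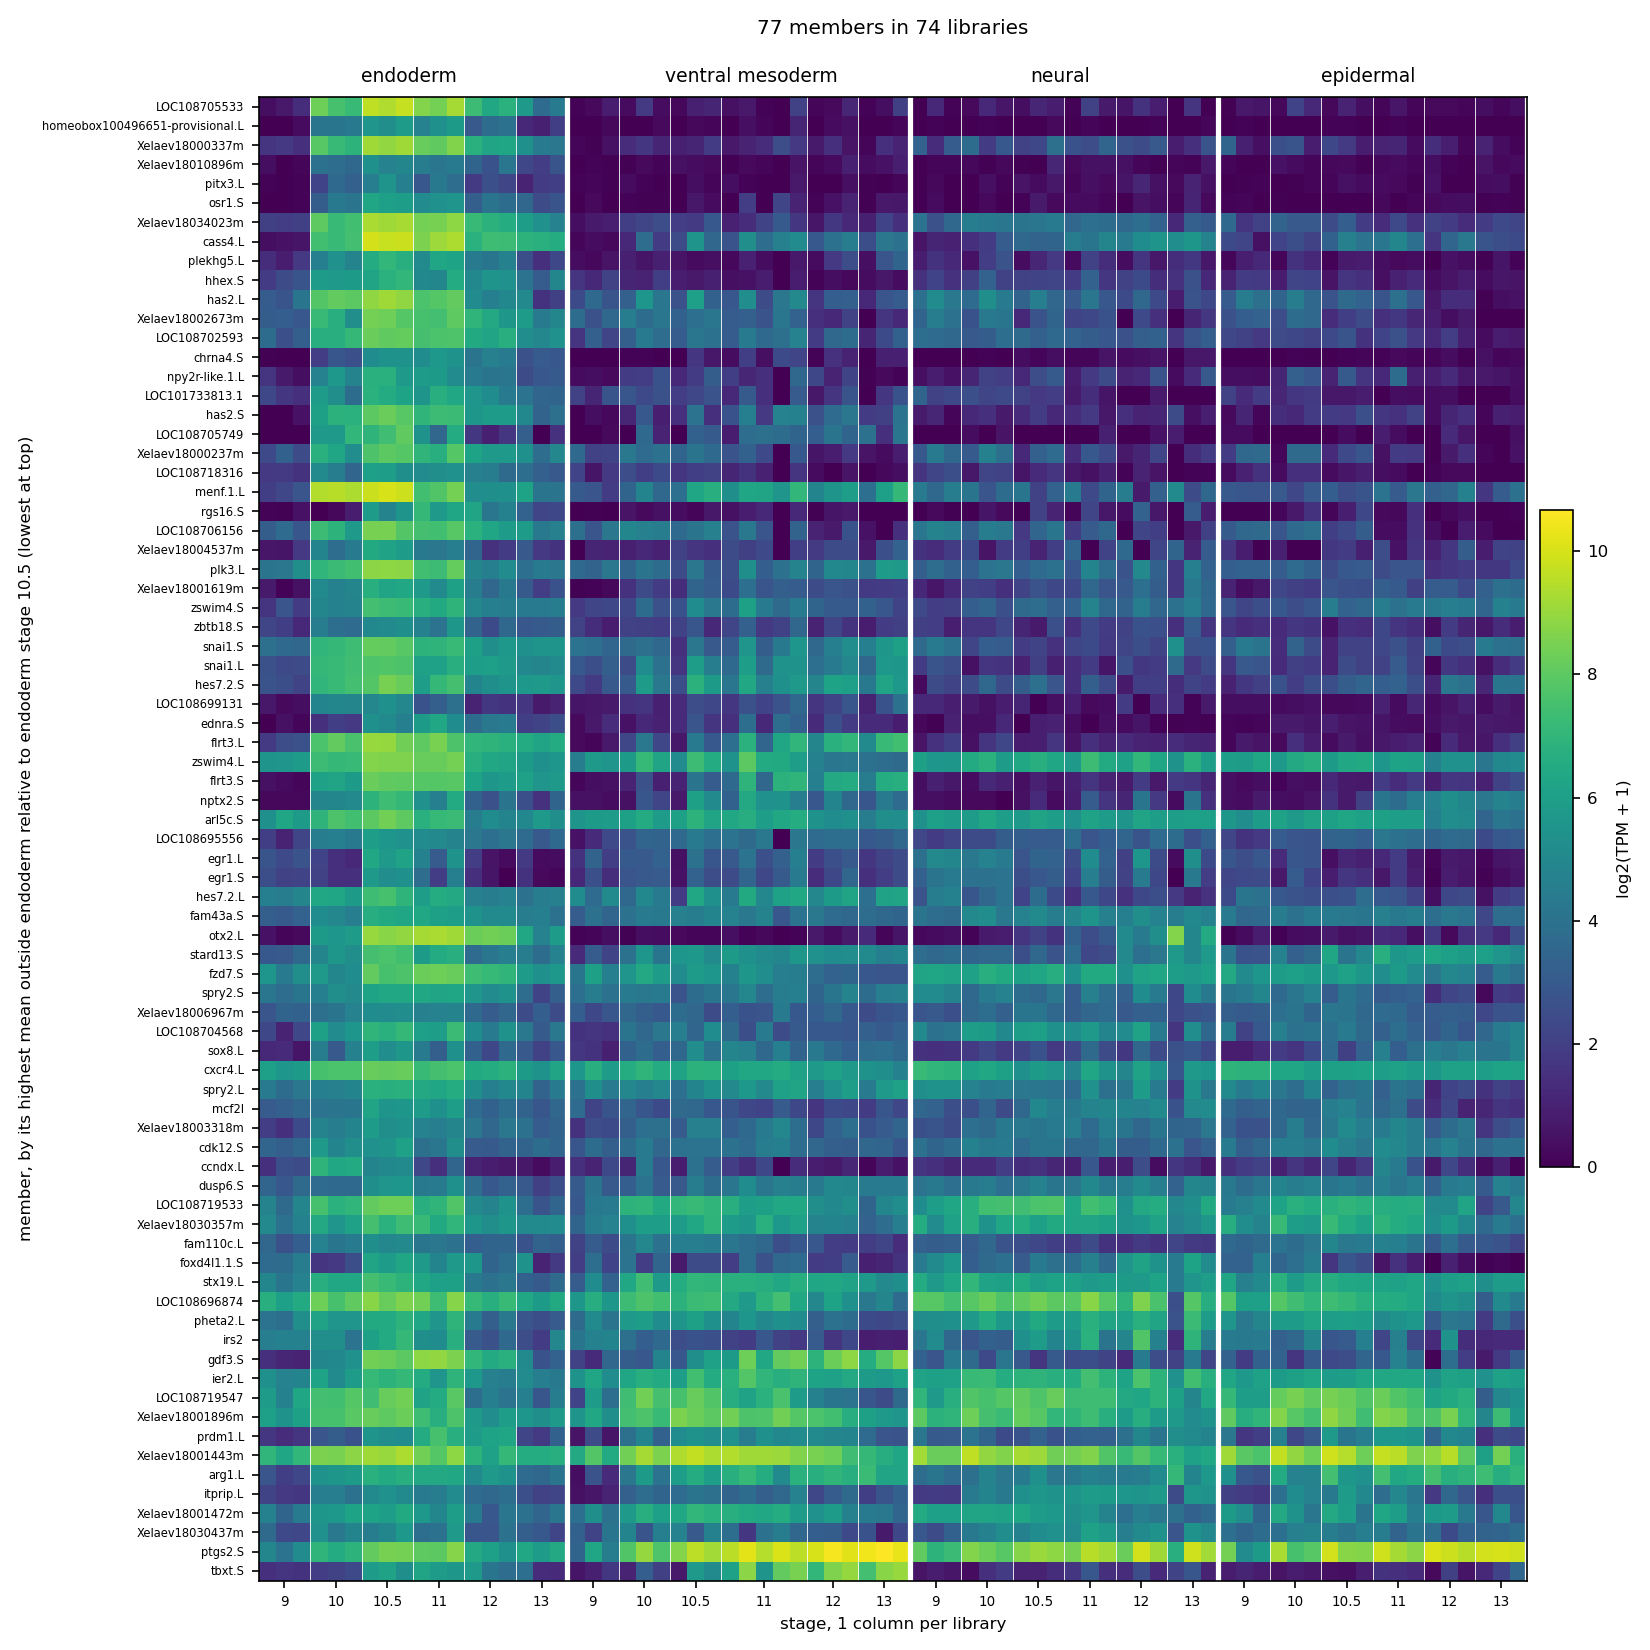
log2(TPM + 1) of 77 of the 78 members (rows) in the 74 libraries (columns, by lineage and stage). Members are ordered by their highest mean outside endoderm as a percentage of endoderm stage 10.5, from 0.21% for the most restricted to 688.8% for tbxt.S, and in every row the stage 10.5 endoderm columns are brighter on average than those of stages 9 and 13, as the rule required.

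In ventral mesoderm 32 of 71 members were higher at stage 10.5 than at stage 9 (11.6% of all genes) and 1, irs2, was lower (12.5% of all genes). The members' median log2 fold change was 2.40, or 1.92 with members at the floor of 3 counts a library set to their bound, against 0.12 over all genes. Without replicate 1 in both groups, 31 were higher and 1 lower. itprip.L, named for its interaction with the inositol trisphosphate receptor, had 12.2, 16.4 and 14.5 TPM at stage 10.5 and 0.40, 0.58 and 1.02 TPM at stage 9 (log2 fold change 5.42, SE 0.43, edgeR adjusted p = 5.3e-04), and cass4.L had 4.62, 45.3 and 10.6 TPM at stage 10.5 and 0.15, 0.27 and 0.17 TPM at stage 9 (7.67, SE 1.2, adjusted p = 0.0051). Neither pair of groups overlapped. prdm1.L had 35.2, 43.8 and 35.9 TPM at stage 10.5 and 0.48, 4.39 and 0.54 TPM at stage 9 (4.96, SE 0.82, adjusted p = 0.0062). irs2, an insulin receptor substrate whose symbol the RefSeq table lists as a synonym of irs4, fell by 1.63 (SE 0.19, adjusted p = 0.0013). With the replicate block, menf.1.L (adjusted p = 0.0079, with the block 0.097), nptx2.S (0.019 and 0.089), flrt3.L (0.029 and 0.13), hes7.2.S (0.028 and 0.21), LOC108719547 (0.021 and 0.07) and tbxt.S (0.05 and 0.13) were no longer called. All of these except menf.1.L were also lost without ventral mesoderm stage 10.5 replicate 2 (adjusted p of 0.055 to 0.15) and without at least 2 of the other libraries.

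From stage 10.5 to stage 13 in ventral mesoderm, 6 members were higher (19.4% of all genes) and 19 lower (19.2% of all genes), shares that stood below and above those of all genes, and the median was −0.44, against −0.08 over all genes. Higher counts were unstable: 2 members were higher without ventral mesoderm stage 13 replicate 2 or 3, 3 without stage 10.5 replicate 3, and 10 without replicate 1 in both groups, which left 19 lower. LOC108719547 had 6.21, 4.42 and 12.0 TPM at stage 13 and 189, 290 and 220 TPM at stage 10.5 and fell by 4.95 on the log2 scale (SE 0.29, edgeR adjusted p = 2.7e-05). prdm1.L had 12.2, 6.08 and 5.68 TPM at stage 13 and fell by 1.92 (SE 0.30, adjusted p = 9.5e-04). ptgs2.S had 1384, 1618 and 1262 TPM at stage 13 and 411, 782 and 584 TPM at stage 10.5 and rose by 1.82 (SE 0.25, adjusted p = 5.1e-04). gdf3.S (3.3, adjusted p = 0.052) and tbxt.S (4.20, adjusted p = 0.083) had every stage 13 library above every stage 10.5 library, but neither was called. Without stage 10.5 replicate 1 both were (adjusted p of 0.031 and 0.0041), as with DESeq2 (0.003 and 0.0066), and with the replicate block gdf3.S was (4.4e-05) and tbxt.S was not (0.14). For tbxt.S the fit without replicate 1 is not independent of the markers by which that library stood apart.

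No member was called between ventral mesoderm and epidermal explants. At stage 10, 0 members were higher and 0 lower (0% and 0% of all genes), 16 and 4 at an unadjusted p under 0.05, and 8 and 2 with DESeq2 (0.809% and 0.777% of all genes). At stage 10.5, 0 and 0 were called (0.00369% and 0.00369% of all genes), 23 and 3 at an unadjusted p under 0.05, and 9 and 2 with DESeq2 (0.526% and 0.719% of all genes). The medians were 0.37 and 0.49. At stage 10.5 the difference was 5.73 for tbxt.S (SE 1.53, edgeR adjusted p = 0.54), 4.34 for flrt3.L (SE 1.2, adjusted p = 0.54), 3.49 for menf.1.L (SE 0.67, adjusted p = 0.35) and −4.86 for Xelaev18001472m (SE 0.75, adjusted p = 0.24). For Xelaev18001472m the TPM means went the other way, with 107.2 TPM in ventral mesoderm and 53.66 TPM in epidermal explants, so its direction is not settled. Without ventral mesoderm stage 10.5 replicate 1, 3 members were higher, among them tbxt.S (6.31, adjusted p = 0.0053) and menf.1.L (3.95, adjusted p = 0.012). As tbxt is among the markers by which this replicate stood apart, the tbxt.S call is not independent of that choice.

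In neural explants 20 of 71 members were higher at stage 10.5 than at stage 9 (14.4% of all genes) and 7 lower (14.9% of all genes), and with the replicate block 30 were higher (24.4% of all genes) and 13 lower (24.1% of all genes). The median was 0.60, against 0.10 over all genes. itprip.L had 40.2, 48.7 and 41.8 TPM at stage 10.5 and 2.51, 2.65 and 2.56 TPM at stage 9, above its endoderm values of 33.6, 41.2 and 33.8 TPM in mean, and rose by 4.34 (SE 0.17, edgeR adjusted p = 1.4e-05). cass4.L rose by 3.16 (SE 0.36, adjusted p = 5.8e-04) but only to 11.1, 9.56 and 9.74 TPM. snai1.S, with 2.76, 3.59 and 1.87 TPM at stage 10.5 and 12.1, 20.0 and 14.9 TPM at stage 9, fell by 2.19 (SE 0.30, adjusted p = 0.0013), and spry2.L (−1.14, adjusted p = 0.004), spry2.S (−1.04, adjusted p = 0.005) and stard13.S (−1.27, adjusted p = 0.0034) also fell, whereas the rule had required higher endoderm levels at stage 10.5 than at stage 9.

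From stage 10.5 to stage 13 in neural explants, 5 members were higher (4.31% of all genes) and 6 lower (4.11% of all genes), and the median was 0.30, against 0.08 over all genes. otx2.L returned at neural stages: its libraries had 2.13, 3.20 and 1.99 TPM at stage 10.5, 33.3, 20.1 and 37.8 TPM at stage 12 and 406, 29.0 and 89.7 TPM at stage 13 (log2 fold change 6.63, SE 1.06, edgeR adjusted p = 0.014). prdm1.L had 37.3, 33.5 and 26.9 TPM at stage 13 and 5.67, 9.09 and 5.37 TPM at stage 10.5 (2.67, SE 0.41, adjusted p = 0.013), and cass4.L 36.4, 49.0 and 26.1 TPM at stage 13 (2.03, SE 0.38, adjusted p = 0.021). The groups did not overlap for any of the 3 genes, but these counts rested on single libraries. Neural stage 13 replicate 1 also stood apart in its markers, with neural markers summing to 2878 TPM, against 1065 and 1642 TPM in replicates 2 and 3, and ventral and paraxial mesoderm markers to 11.2 TPM, against 316.8 and 47.0 TPM. The neural markers include otx2, so their sum partly restates the otx2.L values. Without any 1 of the 3 neural stage 10.5 libraries 0 members were higher and 0 lower, and the adjusted p of otx2.L was then 0.09, 0.071 and 0.085, that of prdm1.L 0.084, 0.057 and 0.079, and that of cass4.L 0.098, 0.094 and 0.085 (0.053 without neural stage 13 replicate 3). Without neural stage 13 replicate 1, 9 were higher and 7 lower, without replicate 2, 3 were lower, and without replicate 3, 3 were higher and 1 lower.

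Against epidermal explants at stage 10.5, 2 members were higher in neural explants (0.114% of all genes) and 1 lower (0.121% of all genes). egr1.L had 6.03, 9.96 and 9.09 TPM in neural and 0.37, 1.2 and 0.90 TPM in epidermal libraries (log2 fold change 3.46, SE 0.42, edgeR adjusted p = 0.016), LOC108704568 had 59.6, 64.4 and 39.3 TPM against 13.8, 20.6 and 12.0 TPM (1.73, SE 0.27, adjusted p = 0.05), and fam110c.L had 4.90, 3.82 and 2.90 TPM against 28.9, 18.3 and 20.6 TPM (−2.60, SE 0.31, adjusted p = 0.015). None of the 3 overlapped between the lineages. No member was higher in the fits without epidermal stage 10.5 replicate 3 or without any 1 neural stage 10.5 library, where the adjusted p of egr1.L was 0.072, 0.056, 0.075 and 0.083 and that of LOC108704568 between 0.077 and 0.18 (0.088 without epidermal stage 10.5 replicate 1). fam110c.L was no longer called without neural stage 10.5 replicate 2 (adjusted p = 0.1) or 3 (0.073), and the count of lower members was 2 without epidermal stage 10.5 replicate 1 or 2. Of 43 other ERK and FGF feedback genes, 4 were higher in neural explants (0.114% of all genes) and 0 lower (0.121% of all genes).

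In epidermal explants, which received no factor, 18 members were higher at stage 10.5 than at stage 9 (12.37% of all genes) and 5 lower (14.7% of all genes). With the replicate block 30 were higher (24.5% of all genes) and 8 lower (24.4% of all genes). Without epidermal stage 9 replicate 2, 11 were higher and 3 lower, and 3 were lower without stage 9 replicate 3 or without stage 10.5 replicate 2 or 3. Replicate 1 stood apart in its epidermal markers at both stages. They summed to 1659 TPM at stage 9, against 393.6 and 489.8 TPM, and to 4760 TPM at stage 10.5, against 2135 and 2150 TPM. The median was 0.68, or 0.45 with bounds, against 0.12 over all genes. itprip.L had 18.7, 56.5 and 30.8 TPM at stage 10.5 and 3.04, 2.75 and 2.25 TPM at stage 9 (log2 fold change 4.20, SE 0.43, edgeR adjusted p = 0.0013), and cass4.L had 8.94, 24.1 and 15.5 TPM at stage 10.5 and 4.25, 3.74 and 0.41 TPM at stage 9 (3.84, SE 0.34, adjusted p = 8.8e-04). Both also rose in neural and ventral mesoderm explants, without overlap in any of the 3 lineages. egr1.L fell by 2.64 (SE 0.44, adjusted p = 0.0055).

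From stage 10.5 to stage 13 in epidermal explants, 12 members were higher (21.3% of all genes) and 22 lower (20.8% of all genes), and 7 were higher without epidermal stage 10.5 replicate 3. Among the 12, cxcr4.L and cdk12.S did not have a higher mean TPM at stage 13. Without epidermal stage 13 replicate 1, 13 were higher and 20 lower, and that library had epidermal markers summing to 20280 TPM, against 8987 and 10420 TPM in replicates 2 and 3. The median was −0.57, against −0.09 over all genes. nptx2.S had 17.6, 26.2 and 21.1 TPM at stage 13 and 1.95, 0.73 and 3.01 TPM at stage 10.5 and rose by 4.03 (SE 0.45, edgeR adjusted p = 4.6e-04). snai1.S had 19.7, 15.2 and 14.2 TPM at stage 13 and 1.05, 3.21 and 3.14 TPM at stage 10.5 and rose by 3.27 (SE 0.46, adjusted p = 9.7e-04). has2.L had 0.05, 0.32 and 0.42 TPM at stage 13 and 5.54, 11.8 and 9.23 TPM at stage 10.5 and fell by 3.35 (SE 0.64, adjusted p = 0.0041), and mcf2l fell by 3.49 (SE 0.35, adjusted p = 3.2e-04). Epidermal nptx2.S and snai1.S were thus higher at the stage for which the rule required low endoderm levels.

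Homeologs, the L and S copies left by the ancient hybridisation behind this tetraploid genome, often differed. Of 44 members with a partner in the table, 14 made 7 pairs in which both copies were members (flrt3, has2, snai1, hes7.2, zswim4, spry2 and egr1). Of the 30 partners that were not members, 17 were under 30 TPM at stage 10.5, 18 missed the ratio to stage 9 and 25 missed the ratio to stage 13, and their median level was 11.4% of the member's. In some the other copy was expressed at stage 10.5 and stood at a like level at stage 13: osr1.L had 213.1 TPM at stage 10.5 and 195.8 TPM at stage 13 in endoderm, where osr1.S had 66.45 TPM at stage 10.5, and hhex.L had 70.67 TPM at stage 10.5, 121.9 TPM at stage 12 and 72.29 TPM at stage 13, where hhex.S had 105.1, 38.49 and 17.37 TPM. In others it was low or near absent: tbxt.L was at 1.717 TPM, nptx2.L at 0.053 TPM, rgs16.L at 0.047 TPM and plk3.S at 47.7 TPM, where plk3.L had 451 TPM. itprip.S alone met both ratios and missed only the level, with 17.45 TPM. Reads that fit both copies may be treated differently in the TPM and in the counts, so the values of close pairs are less certain than their library spread shows.

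**Figure D5:**
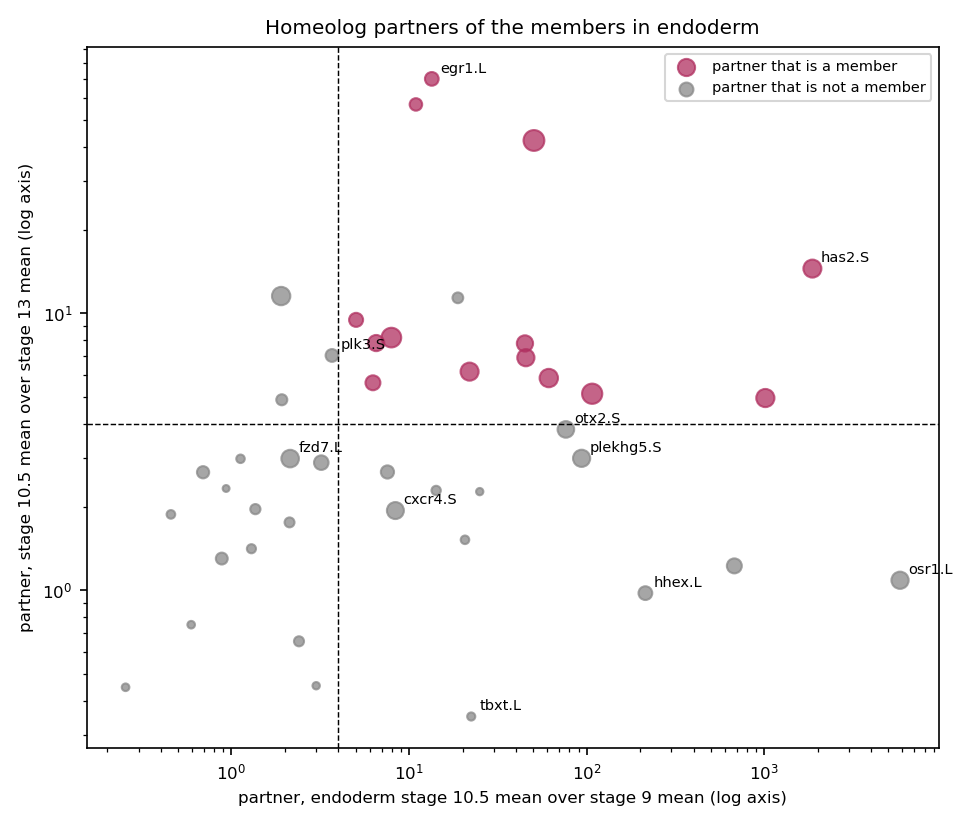
Endoderm stage 10.5 mean over stage 9 mean (x, log axis) against stage 10.5 mean over stage 13 mean (y, log axis) for 43 homeolog partners of members. Point area grows with the stage 10.5 level, colour marks whether the partner is itself a member, and dashed lines stand at 4. Most partners that are not members lie under the horizontal line, among them the 25 of 30 that missed the ratio to stage 13.

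Over the 74 libraries the member pairs with the most alike profiles, by the correlation of log2(TPM + 1) as a description, were Xelaev18001443m with Xelaev18001896m (0.983), egr1.L with egr1.S (0.979), LOC108705533 with Xelaev18010896m (0.974), Xelaev18034023m with Xelaev18000337m (0.974), flrt3.L with flrt3.S (0.966), osr1.S with chrna4.S (0.965) and menf.1.L with LOC108699131 (0.956). The libraries share their stage and lineage, so high values are common among members chosen for a like course. By the order of genes in the RefSeq annotation of a later assembly, LOC108719547 and LOC108719533 are direct neighbours with 0 genes between them, and cdk12.S and arl5c.S have 8 genes between them.

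Members near the limits of the rule were as follows. Just inside the level were pitx3.L (30.28 TPM) and ccndx.L (30.37 TPM), and just outside hoxc12.L (29.41 TPM) and foxj1.S (28.69 TPM). By the ratio to stage 9, Xelaev18001472m (4.02) and irs2 (4.08) were inside and Xelaev18002109m (3.98) and lpar6.L (3.88) outside. By the ratio to stage 13, Xelaev18003318m (4.21) and fam110c.L (4.31) were inside and Xelaev18027161m (3.95) and otx2.S (3.81) outside.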

How the data were processed

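The authors mapped paired reads of polyA-selected RNA with STAR 2.6.0 to the v9.2 genome of X. laevis and deposited counts per gene without normalization, and they deposited TPM computed with RSEM. The processing notes in the labels name FastQC. Members, levels and peak stages came from the deposited TPM, and all tests from the deposited counts. TPM and counts were normalized differently, so a TPM ratio and a count-based fold change of a member can differ. TPM of 1 symbol was summed, which joined several entries for 5 members. Of 45656 genes, the 27424 that reached 15 counts in any of the 74 libraries were kept. Each comparison was fitted in edgeR 4.0.16 (R 4.3.3) with TMM normalization and the robust quasi-likelihood F test on the libraries of its 2 groups, called at an adjusted p (Benjamini-Hochberg over all genes tested) of 0.05, and checked in DESeq2 1.42.0, and the scripts were tested on simulated data. Python 3.11.15, numpy 2.4.6, pandas 2.3.3 and matplotlib 3.10.9 were used. A total of 72 members were matched between the tables by symbol and 2 by a synonym (tbxt.S as t.S, pheta2.L as fam109b.L), and 3 were under the count minimum. SE is the log2 fold change divided by the square root of F. Depth limits the precision of members under a few counts a library.

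The members and the 10 gene lists (Activin and Nodal pathway, organizer transcription factors, secreted antagonists, pan-mesoderm and paraxial factors, endoderm factors, ERK and FGF feedback, Notch pathway, cell movement and adhesion, cell cycle and stress, chromatin and RNA) were chosen with earlier results of these data known. Named members were the 12 highest at stage 10.5, the 8 with the largest ratio of stage 10.5 to the larger of stages 9 and 13, those in a gene list, the 3 largest called changes in each direction of a comparison among members of at least 10 TPM, their homeologs, and the 2 on each side of each limit of the rule. Other members named in the text were chosen after their values were seen.

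Libraries with the same replicate number deviated together within a lineage (correlations of 0.267 to 0.676 over genes in every pair of stages compared, except ventral mesoderm at stage 13 over stage 10.5, with 0.094 to 0.278) but not between lineages (−0.123 to 0.074). The labels do not say what a number stands for. The paper counts the replicates of the lineages as independent experiments, so a number may stand for 1 time course within a lineage. Fits without the block leave such a pairing out. The block is given as an alternative, beside a result of the members where it changed it. Between stages of a lineage it also raised the number of all genes called, so the shares of all genes depend on this choice. At ventral mesoderm stage 11, TPM columns 2, 3, 4 and 5 were most like count columns 4, 5, 2 and 3, so replicates of that group are named by their TPM column and no test uses them. Alternatives were other size factors, low-count filters, the replicate block, DESeq2, a single fit of all libraries, other thresholds of the rule and each library left out. No sequence was used. The values of 1 member are not reported here by name.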

Additional observations from a re-analysis of the deposited data

Results flagged for a closer look

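In the group of 5 ventral mesoderm libraries at stage 11, the only group large enough for an outlier test, 5 of the 52 members tested had a library far from the others by Dixon's test. The test flags about 1 in 20 by chance in independent genes. These members share the same 5 libraries, so the count cannot be set against that rate. LOC108705533 was at 3.23 TPM in replicate 5 and 0 to 0.64 TPM in the others. In replicate 2, zswim4.L was at 248.5 TPM (42.67 to 91.5 TPM in the others) and ier2.L at 226.1 TPM (100.8 to 127.7 TPM). irs2 was at 6.52 TPM in replicate 3 (2.37 to 3.2 TPM) and itprip.L at 25.7 TPM in replicate 5 (8.29 to 12.56 TPM).

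A pair of members moved in opposite directions in different lineages between stages 10.5 and 13, with every library of the later stage on the same side of those of the earlier one. The stage 13 mean TPM of cass4.L was 3.67 times its stage 10.5 mean in neural and 0.307 times in epidermal explants, where the count-based log2 fold change was −0.03 and not called. For prdm1.L the ratio was 0.209 in ventral mesoderm, 4.86 in neural and 0.113 in epidermal explants. The difference between lineages was not tested.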

How the results depend on the processing

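Under other forms of the rule the number of members went from 57 (5-fold) to 109 (3-fold), within 1.5 times the 78 reported, and was 70 to 92 without replicate 1, 2 or 3. With CPM in place of TPM the median of the highest mean, in percent of endoderm stage 10.5, was 28.71 in ventral mesoderm and 14.35 in epidermal explants, and without 1 replicate number it was 20.83 to 27.08 in ventral mesoderm, 11.27 to 14.95 in neural and 11.08 to 14.55 in epidermal explants.

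DESeq2 gave, in endoderm against epidermal explants, 4 lower members at stage 10 and 5 at stage 11, in endoderm against ventral mesoderm 38 higher and 3 lower, in ventral mesoderm against epidermal explants 8 higher and 2 lower at stage 10 and 9 and 2 at stage 10.5, and in neural against epidermal explants 9 and 4. At stage 13 over stage 10.5 it gave 13 higher in ventral mesoderm and 12 in neural explants, and at stage 10.5 over stage 9, 8 lower in epidermal explants. Without a filter, 2 members were lower in endoderm against epidermal explants at stage 10 and 4 at stage 11, 1 was lower in ventral mesoderm against epidermal explants at either stage, 6 were higher in neural against epidermal explants, and 3 were higher in ventral mesoderm at stage 13 over stage 10.5. With a filter on the mean count these were 2, 1, 0, 1 and 11. The single fit of all libraries gave 1 lower in endoderm over epidermal explants at stage 11, 1 lower in ventral mesoderm over epidermal explants at stage 10, 4 higher and 1 lower at stage 10.5, and 0 higher and 2 lower in neural over epidermal explants. Between stages it gave 12 higher in ventral mesoderm and 11 higher and 11 lower in neural explants (stage 13 over 10.5), 2 lower in epidermal and 3 lower in neural explants (stage 10.5 over 9), 0 lower in endoderm at stage 11 over stage 10, and 18 lower at stage 12 over stage 11, where has2.L (adjusted p = 0.078), cass4.L (0.091), gdf3.S (0.25) and otx2.L (0.59) were no longer called. The cause was not tested.

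With the replicate block, 2 members were lower at stage 10 and 1 at stage 11 in endoderm over epidermal explants, 11 were higher in ventral mesoderm at stage 13 over stage 10.5, 30 higher and 8 lower in epidermal and 13 lower in neural explants at stage 10.5 over stage 9, and 5 lower in endoderm at stage 11 over stage 10. The block moved no other count of members by over 1.5 times.

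Without 1 library, lower members in endoderm against epidermal explants were 0 to 2 at stage 10 and 0 to 3 at stage 11, and 0 to 1 in endoderm against ventral mesoderm, where 17 to 29 were higher. Ventral mesoderm against epidermal explants at stage 10.5 gave 0 to 3 higher, and neural against epidermal explants 0 to 2 higher and 0 to 2 lower. Between stages the ranges were 2 to 10 higher and 14 to 22 lower in ventral mesoderm (stage 13 over 10.5), 11 to 27 higher and 3 to 4 lower in epidermal and 5 to 9 lower in neural explants (stage 10.5 over 9), 7 to 14 higher and 15 to 22 lower in epidermal and 0 to 9 higher and 0 to 7 lower in neural explants (stage 13 over 10.5), and 2 to 5 lower (stage 11 over 10) and 23 to 36 lower (stage 12 over 11) in endoderm. The sign turned for genes that were not called: the log2 fold change of ier2.L in endoderm over epidermal explants at stage 11 was −0.301 to 0.225 (0.225 without endoderm replicate 2, 0.013 without epidermal replicate 1), and that of hhex.S in endoderm was −0.444 to 0.438 at stage 11 over stage 10 and −0.409 to 0.474 at stage 12 over stage 11 (−0.444 and 0.474 without endoderm stage 11 replicate 3). Chosen after seeing the data were the fits without ventral mesoderm replicate 1, which gave 3 higher members against epidermal explants at stage 10.5 and 10 higher at stage 13 over stage 10.5, and the counts over the 68 members whose counts follow their TPM (correlation of at least 0.8), which moved no count by over 1.5 times.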
